A study of Mus musculus with 14 samples.

Results

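Macrophage and leukocyte genes were followed in whole fetal mouse ovaries after deletion of Coup-tfII, an orphan nuclear receptor encoded by Nr2f2. The set holds 37 genes of the 18193 on the array platform that have a probe set annotated to a single gene symbol. They were chosen as markers of macrophages and other leukocytes, and every probe set annotated to exactly 1 of their symbols was taken, 63 of 34945. There were 4 knockout and 4 control arrays at embryonic stage E16.5, and 3 knockout and 3 control arrays at E14.5. Knockout embryos carried WT1-CreERT2, a tamoxifen-activated recombinase made in cells that express Wt1, and a COUP-TFII flox/flox gene. The dams received tamoxifen (2 mg per 10 g of body weight) on E11.5 and on E12.5, and the labels give this treatment for controls too. All embryos came from a mixed C57BL/6, Swiss Webster and B6129SF1/J background. The labels do not say which alleles the controls carried, with or without Cre, or whether ovaries of several embryos were pooled. The labels call the arrays of a group biological replicates. Deletion is limited to cells in which the Wt1-driven recombinase was active.

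Macrophages settle in developing organs before birth, where they engulf dying cells and shape growing vessels. Their survival depends on the receptor Csf1r and its ligand Csf1, and their identity on the transcription factor PU.1, made from Spi1, which binds purine-rich GAGGAA elements in many myeloid promoters. Tissue macrophages make the 3 chains of complement C1q, which tag material for uptake, and carry Fc receptors whose signals pass through the adapters Fcer1g and Tyrobp. Several of these genes are also active in other blood cells: Fcer1g in mast cells, Pf4 in megakaryocytes, and Ptprc, Coro1a and Cd53 in most leukocytes. In whole-organ RNA, a change in the number of cells of a type and a change in RNA per cell cannot be told apart.

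The promoters of C1qb and Pram1, the members that passed a knockout comparison, are shown with those of C1qc, the neighbour of C1qb, and of Cd68 and Fcer1g, whose groups did not overlap at E16.5. Each is a 300-base RefSeq window (build GRCm38.p6) around the annotated transcription start, written 5′ to 3′ on the strand of the gene, with GAGGAA or its reverse complement TTCCTC in capitals; Pram1 has 2 listed windows, and the first is shown.
C1qb, chr4:136886151-136886450, minus strand: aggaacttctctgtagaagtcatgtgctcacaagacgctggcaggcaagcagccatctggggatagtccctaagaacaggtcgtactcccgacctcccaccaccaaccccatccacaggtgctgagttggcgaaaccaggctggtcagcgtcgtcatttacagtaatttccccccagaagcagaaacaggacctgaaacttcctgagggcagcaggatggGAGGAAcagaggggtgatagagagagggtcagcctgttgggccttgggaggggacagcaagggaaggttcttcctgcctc
C1qc, chr4:136892865-136893164, minus strand: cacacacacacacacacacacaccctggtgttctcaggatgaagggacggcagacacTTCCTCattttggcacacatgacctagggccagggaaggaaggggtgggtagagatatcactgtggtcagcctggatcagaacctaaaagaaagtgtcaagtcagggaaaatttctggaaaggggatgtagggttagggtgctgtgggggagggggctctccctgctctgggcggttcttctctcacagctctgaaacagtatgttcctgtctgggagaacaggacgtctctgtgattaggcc
Cd68, chr11:69666121-69666420, minus strand: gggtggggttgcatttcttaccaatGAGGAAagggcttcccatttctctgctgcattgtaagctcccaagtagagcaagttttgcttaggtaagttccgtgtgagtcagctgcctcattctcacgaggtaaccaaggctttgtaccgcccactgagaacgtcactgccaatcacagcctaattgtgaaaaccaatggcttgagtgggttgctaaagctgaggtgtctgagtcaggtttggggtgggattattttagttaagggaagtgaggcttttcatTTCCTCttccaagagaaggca
Fcer1g, chr1:171234300-171234599, minus strand: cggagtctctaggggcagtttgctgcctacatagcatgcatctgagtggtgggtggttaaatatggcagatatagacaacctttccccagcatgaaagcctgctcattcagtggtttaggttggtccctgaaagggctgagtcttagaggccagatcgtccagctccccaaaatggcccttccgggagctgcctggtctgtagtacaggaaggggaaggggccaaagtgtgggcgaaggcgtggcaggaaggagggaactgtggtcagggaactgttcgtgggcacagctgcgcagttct
Pram1, chr17:33637845-33638144, plus strand: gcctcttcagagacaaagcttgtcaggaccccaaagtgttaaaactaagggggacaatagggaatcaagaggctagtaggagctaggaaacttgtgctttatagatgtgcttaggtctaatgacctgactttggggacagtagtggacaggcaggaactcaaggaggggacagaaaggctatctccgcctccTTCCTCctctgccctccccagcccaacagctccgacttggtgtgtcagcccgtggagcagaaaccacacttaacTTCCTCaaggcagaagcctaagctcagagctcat
Counting the start as 0, the capitals begin at -30 in C1qb, at -193 in C1qc, at -225 and 29 in Cd68 and at -58 and 16 in Pram1, and the Fcer1g window holds no match. The letters GAGGAA, searched on both strands, were present for 18 of the 28 members with a window (64.3%) and for 31.3% of 27025 genes. The related letters GGAAGT, which can overlap GAGGAA, were present for 15 of the 28 (53.6%) and for 26.5% of all genes. A match is a description of the letters and does not show that a factor binds there. RefSeq lists C1qb, C1qc and C1qa next to each other on chromosome 4, between Gm31536 and Epha8.

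Values are MAS5 signals on a linear scale, and changes are differences of log2(signal + 16), knockout minus control, which understate the change of dim genes. Of the members, 27 were bright enough to be tested and 10 were not, namely Spi1, Fcgr1, Trem2, Cd163, Cd14, Folr2, Itgb2, Itgam, Ccr2 and Cd86. Ovarian markers were present, Dazl of germ cells at 2788 to 18710 and Foxl2 of the granulosa lineage at 1152 to 2695. The testis hormone gene Amh stayed between 2.29 and 12.46. At E16.5 Foxl2 had 1243 to 1684 in knockouts and 2319 to 2672 in controls, without overlap. Of 6 ovary markers, 2 had a positive and 4 a negative log2 change at E16.5, and 0 passed in limma. Nr2f2 itself, on its brightest probe set, had 2462, 2261, 3359 and 2053 in E16.5 knockouts and 3819, 4950, 4309 and 4250 in E16.5 controls, without overlap (log2 change -0.79 ± 0.22, SE; limma adjusted p = 0.0753). Its other probe sets were also lower in E16.5 knockouts without overlap, except 1. The widest apart had 270 to 409 in E16.5 knockouts and 1797 to 2227 in E16.5 controls. The exception had 96.7 to 127.8 and 78.8 to 112.2. At E14.5 the brightest probe set had 155, 252.3 and 267.1 in knockouts and 217, 493.2 and 421.8 in controls, which overlapped in control replicate 1. Over the 6 Nr2f2 probe sets that control array lay above all E14.5 knockouts on 1, within their range on 3 and below all of them on 2. Where it lay above, E14.5 knockouts had 219, 161.2 and 259.4, this control had 267.8 and the other controls 349.8 and 272.5. On 1 of the probe sets where it lay below, E14.5 knockouts had 34.6, 65.6 and 79.05, this control had 19.3 and the other controls 349.7 and 207.2. Without it the members' median change at E14.5 was 0.26 and Pram1 was still the 1 member that passed (limma adjusted p = 0.0358). The Gapdh controls also differed between arrays: the log2 difference of the 3′ and 5′ Gapdh control probe sets was 0.94 to 1.63 in E16.5 knockouts and 1.67 to 1.82 in E16.5 controls, without overlap. At E14.5 the difference was -0.37 to -0.29 in knockouts and -0.42 to -0.06 in controls. The bioB hybridization control had 9664, 5365, 4125 and 15920 in E16.5 knockouts and 3956 to 4761 in E16.5 controls, so knockout replicates 1 and 4 stood apart, and 1051 to 1239 in E14.5 knockouts and 1041 to 1088 in E14.5 controls.

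At E16.5 most macrophage and leukocyte genes had higher signals in knockout ovaries, but 1 passed the test. Of 37 members, 35 had a positive log2 change, with a median of 0.34, against a median of 0.06 and 59.3% positive over all genes. C1qc, C1qb and Pf4 had the highest values, at 0.98, 0.82 and 0.80. In limma, 1 of 27 tested members passed as higher, C1qb, and 0 passed as lower, where 0.967% and 0.451% of the 12406 tested genes passed. At an unadjusted p under 0.05, 8 members were higher (11.4% of tested genes) and 0 lower (6.89%). All knockout arrays lay above all controls for 6 of 37 members (5.13% of all genes), C1qa, C1qb, C1qc, Spi1, Fcer1g and Cd68, and 0 lay below (3.29%).

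The same comparison at E14.5 gave a smaller median, but not smaller values throughout. For 11 of 37 members the log2 change was higher at E14.5 than at E16.5. At E14.5 the median log2 change was 0.24 and 30 of 37 were positive, against a median of 0.04 and 56.2% positive over all genes. In limma 1 tested member, Pram1, passed as higher (0.0403% of tested genes) and 0 as lower (0%). At an unadjusted p under 0.05, Pram1 was the 1 member higher (5.45% of tested genes) and 0 were lower (3.1%). Knockout arrays lay above controls without overlap for 7 of 37 members (8.07% of all genes), C1qb, Csf1, Spi1, Fcgr1, Mrc1, Stab1 and Pram1, and below for 0 (4.5%). C1qb and Spi1 were the 2 members that did so at both stages. The share of all genes that did so at both stages was not counted, so this pair has no background to be read against.

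**Figure D1:**
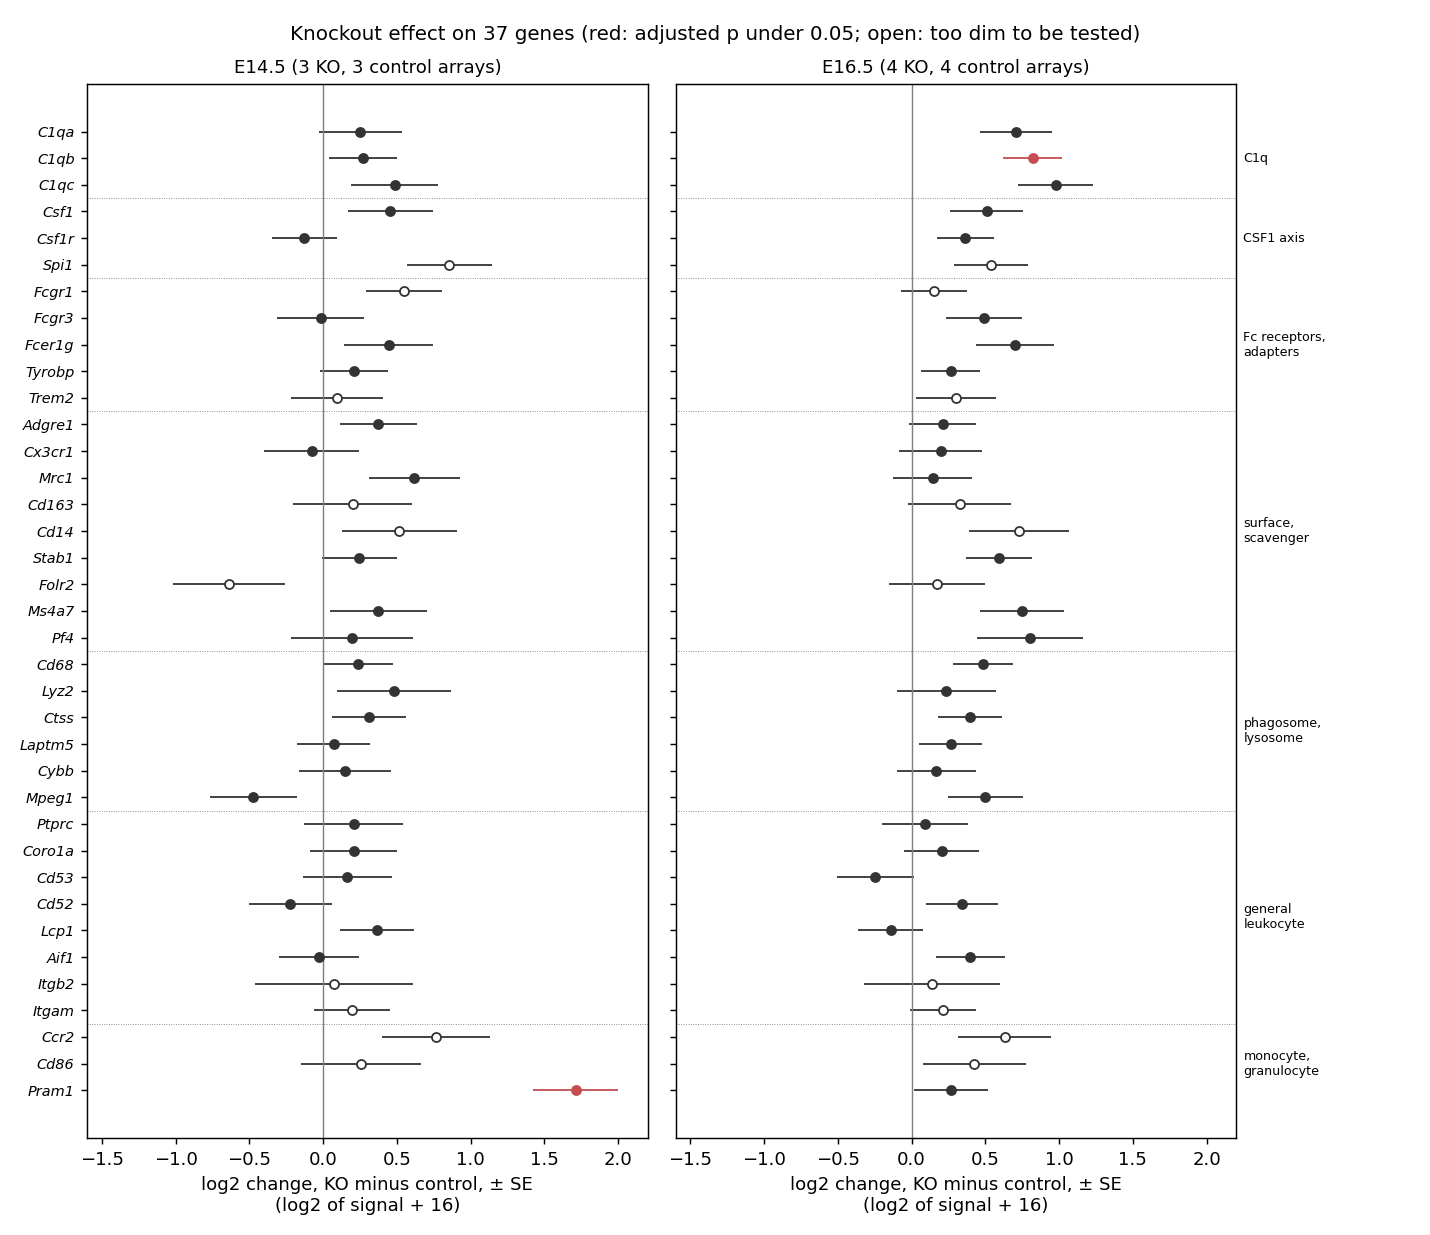
Log2 change (knockout minus control, of log2(signal + 16)) of the 37 genes at E14.5 (left) and E16.5 (right), grouped by role, with bars of 1 SE. Points right of the line are higher in knockouts; Pram1 at E14.5 (1.71) and C1qb at E16.5 (0.82) are red because they passed at an adjusted p under 0.05, and open points are the 10 genes too dim to be tested.

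The C1q genes encode the A, B and C chains of the recognition molecule of the classical complement pathway. C1qb had 2525, 1188, 1710 and 1097 in E16.5 knockouts, against 894.5, 894.4, 742.7 and 946.3 in E16.5 controls. Every knockout array was above every control, and replicate 1 was the highest. On the log2 scale C1qb rose by 0.82 ± 0.20 (SE, n = 4 per group; limma adjusted p = 0.0480). Without knockout replicate 1 its change was 0.58 and no longer passed (limma adjusted p = 0.120), nor did it without knockout replicate 3 or any single control (0.0752 to 0.136). At E14.5 C1qb had 265.5, 269.7 and 244 in knockouts and 209.2, 239.6 and 190.8 in controls, also without overlap but closer together, with a change of 0.27 ± 0.23 (adjusted p = 0.781).

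C1qc had 613.7, 363.3, 355.7 and 306.7 in E16.5 knockouts and 242.2, 194.6, 162.8 and 180.9 in E16.5 controls, again with replicate 1 highest and no overlap. Its change of 0.98 ± 0.26 did not pass (limma adjusted p = 0.0631). At E14.5 it had 180.4, 227.8 and 109.3 in knockouts and 145.6, 141.7 and 69.8 in controls, which overlapped (0.49 ± 0.30). C1qa had 327.6, 138.1, 145.1 and 150.3 in E16.5 knockouts and 97.8, 129, 93.3 and 94.5 in E16.5 controls. The groups did not overlap, but knockout replicate 1 stood far above the other knockouts, which lay just above control replicate 2 (0.71 ± 0.24; limma adjusted p = 0.145). At E14.5 C1qa had 308, 318.3 and 178.4 in knockouts and 218.3, 229.2 and 200.4 in controls, with knockout replicate 3 below all controls.

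The median change of the 3 C1q genes at E16.5 was 0.82 with all arrays and 0.58 without knockout replicate 1, and all 3 stayed positive. The 3 probe sets of C1qb gave changes of 0.82, 0.84 and 0.46 at E16.5, all in 1 direction. In a fit over all 27022 probe sets above the filter level, 0 of 37 member probe sets passed at E16.5 (0.918% of probe sets); at an unadjusted p under 0.05, 14 were higher (8.97% of probe sets) and 0 lower (7.12%).

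**Figure D2:**
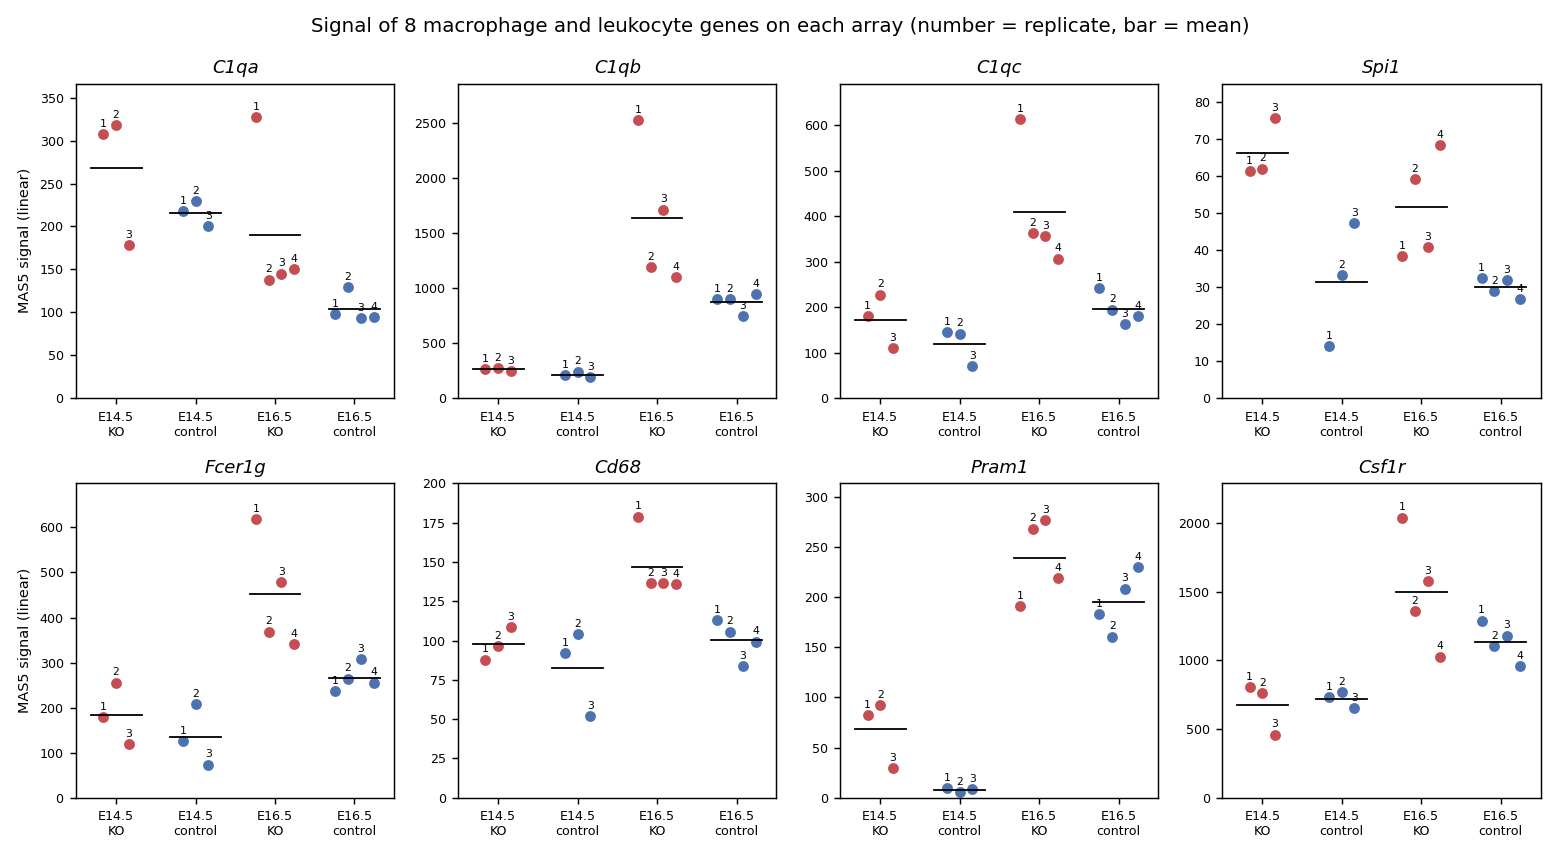
MAS5 signal (linear axis from 0) of 8 genes on every array, knockout left of control at each stage; numbers are replicates and bars are group means. Knockout replicate 1 at E16.5 is the highest point for C1qa (327.6), C1qb (2525), C1qc (613.7), Fcer1g (618.7), Cd68 (178.9) and Csf1r (2040), but not for Spi1 or Pram1.

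Spi1 encodes PU.1. It was dim, with 38.3, 59.2, 40.7 and 68.2 in E16.5 knockouts and 32.3, 28.8, 31.8 and 26.6 in E16.5 controls, and with 61.3, 62.0 and 75.5 in E14.5 knockouts and 14.1, 33.1 and 47.2 in E14.5 controls. The groups did not overlap at either stage, and knockout replicate 4, not 1, was the highest at E16.5. Being below the filter level of 62.0, it was fitted only without the filter, where its changes were 0.54 ± 0.25 at E16.5 and 0.85 ± 0.29 at E14.5 (limma adjusted p = 0.333 and 0.409).

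Csf1, the ligand, had 348.9, 190.5, 241.7 and 143 in E16.5 knockouts and 137.7, 167.1, 133.3 and 163.4 in E16.5 controls, which overlapped in knockout replicate 4 (0.51 ± 0.25; limma adjusted p = 0.293). Csf1r, its receptor, had 2040, 1359, 1575 and 1028 in E16.5 knockouts and 1290, 1106, 1181 and 959 in E16.5 controls. Knockout replicate 4 again lay within the control range, and the change of 0.36 ± 0.19 did not pass (adjusted p = 0.327). At E14.5 the Csf1r groups overlapped (-0.13 ± 0.22). These values are of the brightest Csf1r probe set. Its other probe sets gave larger changes, 0.50 and 0.64 at E16.5 and 0.29 and 0.16 at E14.5, without passing.

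Fcer1g is the signalling chain shared by activating Fc receptors. It had 618.7, 368.7, 479.4 and 341.4 in E16.5 knockouts and 236.5, 264.2, 307.1 and 255.4 in E16.5 controls. No knockout array overlapped the controls (0.70 ± 0.26; limma adjusted p = 0.172). At E14.5 it had 178.2, 255.4 and 119.6 in knockouts and 125.8, 207.4 and 73.7 in controls, which overlapped. The other adapter, Tyrobp, and the receptors Fcgr1, Fcgr3 and Trem2 had changes of 0.15 to 0.49 at E16.5. Of these Tyrobp and Fcgr3 were bright enough to be tested, and neither passed.

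The 9 surface markers and scavenger receptors were all positive at E16.5, with a median of 0.32. In limma 0 of 6 tested passed, and 3 were higher at an unadjusted p under 0.05 (11.4% of all tested genes). Pf4, a chemokine of megakaryocytes and some macrophages (0.80 ± 0.36), Ms4a7 (0.75 ± 0.29) and the scavenger receptor Stab1 (0.59 ± 0.22) had the highest values of the tested ones, at limma adjusted p of 0.248, 0.179 and 0.171. Pf4 had 1991, 408, 636.1 and 559.8 in E16.5 knockouts and 458.5, 433.5, 362.1 and 412.9 in E16.5 controls, so knockout replicate 1 stood far above and knockout replicate 2 within the control range. Without knockout replicate 1 the median of the 9 genes was 0.07 and 6 were positive. Adgre1 (the F4/80 antigen), the fractalkine receptor Cx3cr1 and the mannose receptor Mrc1 had changes of 0.14 to 0.21.

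Cd68, a membrane protein of endosomes and lysosomes, had 178.9, 136.6, 136.7 and 135.9 in E16.5 knockouts and 113.3, 105.8, 83.8 and 99.3 in E16.5 controls. Knockout replicates 2, 3 and 4 were nearly equal and above all controls, with replicate 1 higher still (0.48 ± 0.20; limma adjusted p = 0.224). At E14.5 Cd68 had 87.9, 96.4 and 108.6 in knockouts and 92.2, 104.1 and 52.2 in controls, which overlapped. The other phagosome and lysosome genes were positive at E16.5 without passing. Lysozyme Lyz2 had 0.23, the protease Ctss 0.40 and Laptm5 0.27. The oxidase subunit Cybb had 0.17 and the pore protein Mpeg1 0.50. Other Laptm5 probe sets above the filter level gave 0.61 and 0.63.

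General leukocyte genes had a median change of 0.17 at E16.5 over 8 genes. In limma 0 of 6 tested passed, and 0 did at an unadjusted p under 0.05 (11.4% of all tested genes higher and 6.89% lower). The 2 members with a negative change were here, the tetraspanin Cd53 (-0.25 ± 0.26) and the actin-bundling Lcp1 (-0.14 ± 0.22), while Ptprc, the CD45 antigen of nearly all leukocytes, had 0.09 ± 0.29. Without knockout replicate 1 the median of the 8 was -0.02. Whether these genes differed from the C1q genes was not tested.

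Pram1, an adapter protein first described in myeloid cells, followed another pattern. It had 82.4, 92.0 and 29.9 in E14.5 knockouts and 9.88, 5.85 and 8.56 in E14.5 controls, far apart but with all controls below the filter level. The mean over all arrays passed the filter through the E16.5 arrays, so at E14.5 the test set dim knockout signals against controls near background, and the size of the change is not well determined. It rose by 1.71 ± 0.29 at E14.5 (SE, n = 3 per group; limma adjusted p = 0.0473), by 2.80 with a pseudocount of 1, and by 0.84 with a pseudocount of 64, where it did not pass. It also lost its call when either of control replicates 2 and 3, or of knockout replicates 1 and 2, was left out (limma adjusted p = 0.146 to 0.262). At E16.5 it had 191.1, 268.2, 276.5 and 218.9 in knockouts and 183.2, 160.6, 208.3 and 229.7 in controls, overlapping, with knockout replicate 1 the lowest knockout (0.26 ± 0.25). Averaged over both stages it was the 1 member that passed (0.99 ± 0.19; limma adjusted p = 0.0159), where 1.16% of tested genes passed as higher, and 0 members passed as lower (0.266%). Without E14.5 knockout replicate 2 this call was lost too (limma adjusted p = 0.0530). The other genes of this group, the monocyte receptor Ccr2 and the costimulatory Cd86, were below the filter level.

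Single arrays weighed heavily on the members as a set. E16.5 knockout replicate 1 had the highest signal of its group for 29 of 37 members. Its members lay a median of 0.82 above the mean of the E16.5 controls on the log2 scale, where knockout replicates 2, 3 and 4 had 0.27, 0.40 and 0.08. Summed over the 37 genes the signal was 19840, 12000, 13350 and 8886 in E16.5 knockouts and 10640, 9724, 9430 and 9070 in E16.5 controls, so replicate 4 lay below all controls. At E14.5, knockout replicate 2 was highest for 25 of 37 members, with a median of 0.53 above the control mean, where replicates 1 and 3 had 0.17 and 0.08. Its sum of 7575 stood beside 6061 and 4975 in the other E14.5 knockouts, and 5144, 5582 and 4754 in E14.5 controls.

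**Figure D3:**
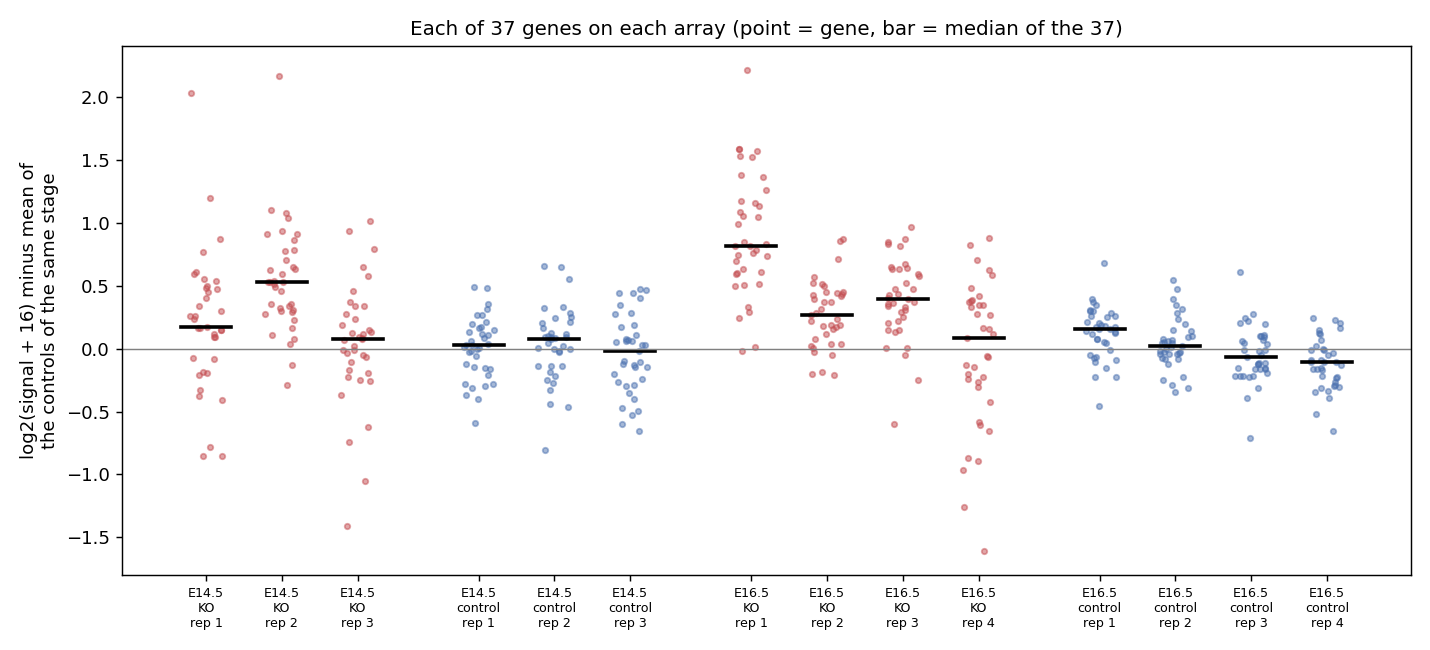
Difference of each of the 37 genes from the mean of the controls of its stage (log2 scale), 1 column per array, knockouts left of controls; bars are medians of the 37. The bar of E16.5 knockout replicate 1 (0.82) and that of E14.5 knockout replicate 2 (0.53) are the highest of their groups, while E16.5 knockout replicate 4 (0.08) is near the controls.

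Without E16.5 knockout replicate 1 the median change of the members at E16.5 was 0.18, and 29 of 37 were positive. The change of 17 members shrank to 50% or less of its size or turned negative. Without knockout replicate 4 the median was 0.49 and 37 of 37 were positive. Leaving out each other E16.5 array gave 0.33 to 0.45, and 29 members were positive in every fit with 1 E16.5 array left out. Without E14.5 knockout replicate 2 the E14.5 median was 0.12, with 27 positive. Replicate 1 also had the lowest Gapdh 3′ minus 5′ difference of the E16.5 arrays (0.94). With that difference as a covariate the E16.5 median was 0.20, 29 members were positive, and C1qb did not pass (0.47 ± 0.23; limma adjusted p = 0.654). Because the Gapdh difference did not overlap between E16.5 knockouts and controls, this fit cannot tell it apart from genotype.

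**Figure D4:**
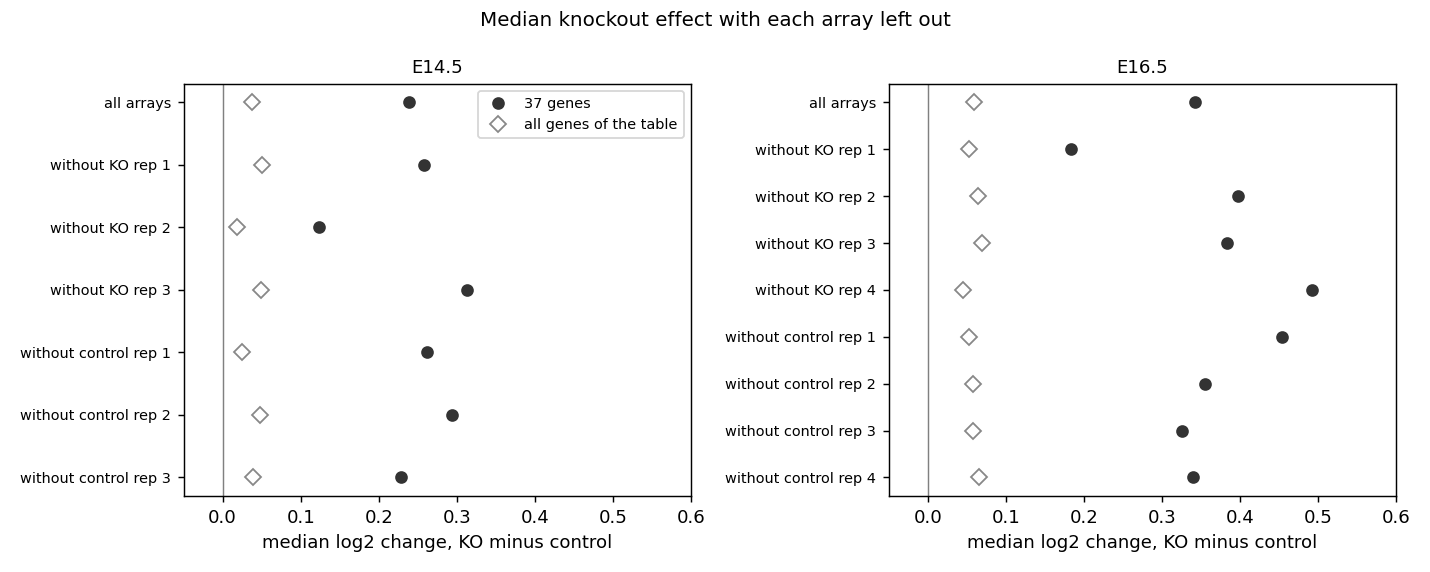
Median log2 change (knockout minus control) of the 37 genes (filled) and of all genes (open) with all arrays and with each array left out, at E14.5 (left) and E16.5 (right). The filled points stay right of the open ones in each fit, and are lowest without E14.5 knockout replicate 2 (0.12) and without E16.5 knockout replicate 1 (0.18).

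Markers of other cell types moved with some of these arrays. Of 7 measured mast cell genes, 7 were positive at E16.5 with a median of 0.55, and 0.57 without knockout replicate 1. One passed as higher, Hdc, the histamine-making enzyme, with 1090, 1384, 1461 and 956 in E16.5 knockouts and 348.9, 241.9, 387.4 and 377.3 in E16.5 controls (1.80 ± 0.35; limma adjusted p = 0.0160). The summed mast cell signal, which includes Hdc, was 2425 to 4398 in E16.5 knockouts and 917 to 2309 in E16.5 controls. Tpsb2 also lay above the controls without overlap at E16.5 (182.8 to 573.4 against 50.2 to 143.8), and the other measured mast cell genes overlapped. At E14.5, 4 of the 7 were positive. Hdc had 884, 914.8 and 585.3 in E14.5 knockouts and 676.1, 154.6 and 122.3 in E14.5 controls, which overlapped in control replicate 1. Tpsb2, dim at that stage, lay below all controls (5.42 to 16.6 against 27.3 to 67.4). Among neutrophil genes, S100a8 had 3991 in E14.5 knockout replicate 2, against 144.6 and 113.7 in the other E14.5 knockouts and 73.5 to 167.3 in E14.5 controls. The summed neutrophil signal of that array was 7129, where the other E14.5 arrays had 259 to 559, and it is the array in which most members were highest. At E16.5 the neutrophil sum was 244 to 4601 in knockouts and 653 to 3376 in controls. Of the megakaryocyte genes 1 of 5 was bright enough to be tested and did not pass; all 5 were positive at E16.5, with a median of 0.47 and sums of 146 to 353 in knockouts and 90.6 to 143.5 in controls. Endothelial genes had a median of 0.19 at E16.5 with 5 of 7 positive. Plvap, of the diaphragms of endothelial pores, passed as higher (1.18 ± 0.21; limma adjusted p = 0.0111) and the angiopoietin receptor Tek as lower (-0.68 ± 0.15; limma adjusted p = 0.0255), both without overlap. Erythroid genes had a median of -0.19 with 1 of 5 positive. T, NK and B cell genes were nearly all below the filter level, with 1 of 8 and 0 of 4 measured genes tested. The part of these cells in the values of the members was not tested.

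Of the 33 tested genes that work with the members, 0 passed at either stage in limma. At an unadjusted p under 0.05, 6 were higher and 3 lower at E16.5, where 11.4% and 6.89% of all tested genes were. At E14.5, 1 was higher and 2 lower, where 5.45% and 3.1% of all tested genes were. Among 17 measured macrophage regulators and signalling genes, 9 were positive at E16.5 with a median of 0.07, and at an unadjusted p under 0.05 Csf2ra was higher (0.36 ± 0.15) and Runx1 lower (-0.44 ± 0.14). Of 9 genes for the clearance of dead cells 6 were positive, with Mfge8, which bridges dying cells to phagocytes, at 0.49 ± 0.14 and the receptor Axl at -0.50 ± 0.17 (limma adjusted p = 0.0896 and 0.135). Of 7 other complement genes 6 were positive at E16.5 and 7 at E14.5, with medians of 0.24 and 0.22. C2, a protease of the classical pathway, had 373.8, 241.5, 371 and 236 in E16.5 knockouts and 213.8, 207.6, 201 and 225.2 in E16.5 controls, without overlap (0.47 ± 0.19; limma adjusted p = 0.203). Of 11 chemokines 10 were positive at E16.5, but 8 were below the filter level. Of 5 class II genes 3 were positive. These comparisons share their arrays with those of the members.

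The stage comparison asked how the members differed between E16.5 and E14.5 within a genotype. In controls 13 of 27 tested members were higher at E16.5 than at E14.5 and 2 were lower, where 28.5% of tested genes were higher and 35.9% lower. Without E14.5 control replicate 1, whose Nr2f2 signal lay below all E14.5 knockouts on 2 of 6 probe sets, 12 were higher and 2 lower in controls. The share of all tested genes in that fit is not given here. In knockouts 12 were higher (27%) and 1 lower (33.8%). The 6 members with the smallest adjusted p in controls were all higher. Laptm5 averaged 1257 ± 190 in E16.5 controls and 168 ± 52.6 in E14.5 controls (SD, n = 4 and 3), a change of 2.82 ± 0.23. Pram1 (3.13 ± 0.27), C1qb (1.95 ± 0.21), Cd53 (1.79 ± 0.28), the adapter Tyrobp (1.35 ± 0.22) and Lcp1 (1.36 ± 0.24) followed, at limma adjusted p of 7.95e-05 or less. The size for Pram1 is not well determined, because its E14.5 control signals of 5.85 to 9.88 lay below the pseudocount, and it passed the filter through its E16.5 arrays. C1qa and Adgre1 were lower at E16.5, by -0.96 ± 0.26 and -1.27 ± 0.25 (limma adjusted p = 0.00407 and 0.000225). The B and A chains of C1q thus had stage changes of opposite sign.

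These directions depended on scaling and on the probe set. The median change of all genes between stages in controls was -0.09 as deposited, -0.22 after quantile normalization and -0.43 after median centring. In the same order, the split of member calls was 13 higher and 2 lower, 11 and 4, and 10 and 5. The shares of all tested genes called after quantile normalization and median centring are not given here. Of 6 members with at least 2 probe sets above the filter level, 5 had probe sets of both signs between stages (57.7% of all such genes), and 0 of 6 did so in the E16.5 genotype comparison (50.4%). In the E14.5 genotype comparison 3 of 6 did, Coro1a, Csf1r and Laptm5 (47.9%). The C1qb probe sets gave 1.95, 0.79 and -0.28, and those of Laptm5 2.82, 0.65 and -0.95. The Gapdh 3′ minus 5′ difference separated the stages completely, and with it as a covariate 2 members, C1qb and Pf4, passed as higher in controls (2.77% of tested genes) and 0 as lower (2.88%). Stage and array processing cannot be told apart here.

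**Figure D5:**
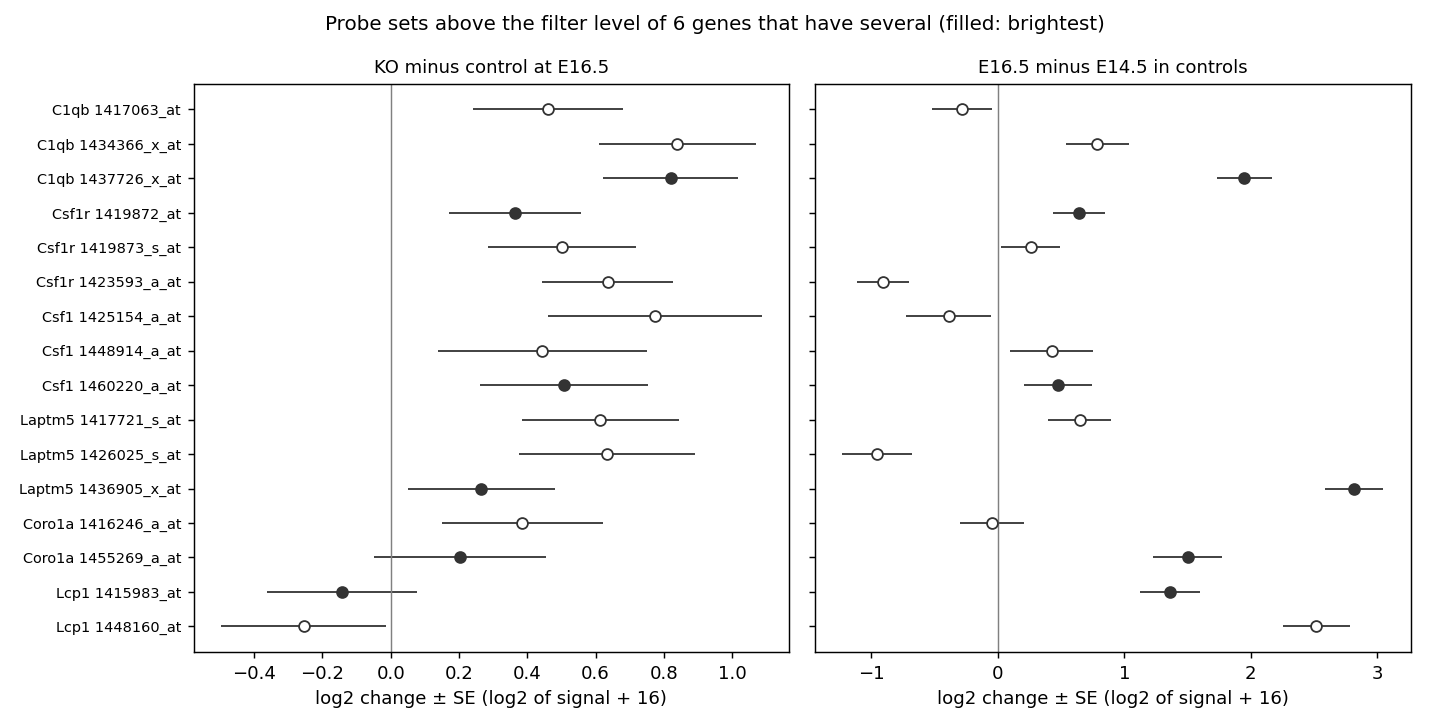
Log2 change of each probe set above the filter level for 6 genes with several, with bars of 1 SE: knockout minus control at E16.5 (left) and E16.5 minus E14.5 in controls (right); filled points are the brightest probe sets. On the left the probe sets of a gene share a side of 0, while on the right those of C1qb (1.95, 0.79 and -0.28) and of 4 other genes do not.

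Whether the knockout effect differed between E16.5 and E14.5 was tested directly. In limma 0 of 27 members and 0 of 12406 genes passed (0% of tested genes). At an unadjusted p under 0.05, Mpeg1 was higher (0.98 ± 0.39) and Pram1 lower (-1.45 ± 0.38), where 4.74% and 4.17% of tested genes were higher and lower. The size for Pram1 is not well determined here either. Its E14.5 control signals of 5.85 to 9.88 lay below the pseudocount, and it passed the filter through its E16.5 arrays. For C1qb the difference was 0.55 ± 0.30 (adjusted p = 0.602).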

How the data were processed

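Ovary RNA was measured on 14 Affymetrix arrays. Per the submitters' processing notes, the deposited intensity values came from MAS5 in Expression Console. Leaving out 2% at each end, every array had a mean of 500, the target of the deposited scaling. Array number limits the precision.

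Of 45037 probe sets, 34945 had 1 gene symbol, 932 several and 9160 none. The brightest probe set stood for each gene, and 12406 genes with a mean above the 40th percentile of probe sets (signal of about 62.0) were tested. A 4-group model was fitted to log2(signal + 16) with limma 3.58.1 (eBayes with a trend) in R 4.3.3, two-sided, with Benjamini-Hochberg adjustment over all genes tested and a threshold of 0.05. The steps were tested on simulated data. All 37 members matched RefSeq gene IDs (GRCm38.p6), and 28 had a promoter window. Figures used matplotlib 3.10.9 in Python 3.11.15.

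The members and lists were chosen with earlier results of these data known. The rule for named genes takes the C1q genes, members that passed or did not overlap at E16.5, the 6 smallest adjusted p between stages and up to 2 genes of each other list. Further members were named after their values were seen. Alternatives changed the pseudocount, scaling, filter, probe set, spread model, arrays, replicate block and Gapdh covariate. Added after seeing the data were the fit over all probe sets and fits without 2 arrays (E14.5 knockout replicate 2 with E16.5 knockout replicate 1, or E16.5 knockout replicates 1 and 3).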

Additional observations from a re-analysis of the deposited data

Results flagged for a closer look

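Among the 74 groups of 4 arrays tested (37 genes at E16.5), 8 held an array whose gap to its nearest neighbour exceeded 0.829 of the whole range of the group on the log2 scale; chance flags about 1 in 20 groups. In knockouts these were C1qa at 327.6 and Cd68 at 178.9 in replicate 1, with the next arrays at 150.3 and 136.7. Folr2 was at 41.9 in knockout replicate 3, with the next at 98.1, and Cd53 at 191.9 in knockout replicate 4, with the next at 486.1. In controls they were C1qa at 129 and Mrc1 at 578.8 in replicate 2, Cd53 at 639 in replicate 1 and Cd86 at 1.84 in replicate 3, with the next arrays at 97.8, 434.3, 454.4 and 16.6.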

How the results depend on the processing

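The median change of the members kept its sign under every alternative run at each stage and averaged. At E16.5 it was 0.13 without knockout replicates 1 and 3 together, with 26 of 37 positive, and 0.37 without replicates 1 and 4 together; averaged over stages it was 0.12 without E14.5 knockout replicate 2 and E16.5 knockout replicate 1. The single calls were fragile. At E14.5, 0 members passed with a pseudocount of 64, quantile normalization, median centring, the 60th percentile filter (Pram1 was too dim for it), no trend in eBayes, the arrays of the stage alone, the replicate block or the Gapdh covariate. At E16.5, 0 passed with a pseudocount of 1, no filter, the mean over probe sets, no trend, the Gapdh covariate, or without knockout replicates 1 and 4 or 1 and 3. With the arrays of the stage alone 1 passed, C1qc in place of C1qb. Averaged, 0 passed with the 60th percentile filter, without E16.5 knockout replicates 1 and 3, or without E14.5 knockout replicate 2 and E16.5 knockout replicate 1. Leaving out each array gave 0 to 1 calls at E14.5 and at E16.5, and 0 to 2 averaged. Between stages in knockouts it gave 13 to 20 calls (20 without E16.5 knockout replicate 4). With all arrays, 60.8% of tested genes passed in that comparison in either direction. For the difference between stages it gave 0 to 1 calls (Pram1, lower, without E14.5 knockout replicate 3). The shares of all tested genes in these fits and in the alternatives above are not given here, so the counts have no background. With the Gapdh covariate 2 members passed between stages in controls and 3 in knockouts, beside 701 and 1192 of 12406 genes. Cd68 at E14.5 ranged from -0.0086 without control replicate 3 to 0.40 without control replicate 2. The cause was not tested. Same-numbered knockout and control arrays had correlations of deviations of -0.0022 to 0.43 (E16.5) and -0.05 to 0.16 (E14.5). Arrays of other numbers had -0.295 to 0.254 and -0.158 to 0.141. The ranges overlapped, and the highest value at each stage was that of a same-numbered pair. Whether the numbers pair the arrays was not tested. With the replicate block 0 members passed at E14.5, 2 at E16.5 (C1qb and C1qc), 2 averaged (C1qc and Pram1) and 0 for the difference. The share of all tested genes that passed with the replicate block is not given here, so these counts have no background to be read against. Signal over background limits the 10 dim members, and 3 or 4 arrays per group limit all of them.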
